A study of Arabidopsis thaliana with 9 samples.

Results

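Pseudogene-type loci on the chromosome arms of Arabidopsis thaliana were followed through 3 groups of whole plants: line1135, line774 and a wild-type control. A member is a probe set ending in _at, designed for a single transcript, whose only annotated gene has the RefSeq gene type pseudogene or transcribed pseudogene. Its locus had to lie outside 5 windows of locus codes around the centromeres, 1 per chromosome: AT1G31000 to AT1G43999, AT2G05000 to AT2G13999, AT3G29000 to AT3G43999, AT4G03000 to AT4G10999 and AT5G27000 to AT5G37999. AT2G04770, an exception named in the rule, was left out. This gave 253 probe sets for 253 loci, out of 22746 probe sets tested, 207 of type pseudogene and 46 of type transcribed pseudogene. The rule rests on annotation and locus codes. Chromosome 2 held 109 of them, chromosome 1 held 49, chromosome 3 held 43, and chromosomes 4 and 5 held 26 each.

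The plants were 17 days old, at growth stage 1.04, and had been kept on plates with a 16 h day and an 8 h night at 21 °C. Their RNA was read on Affymetrix ATH1 arrays, 3 per group and 9 in all. That number limits the precision of every value. The mutant groups are labelled mutant-line774 and mutant-line1135, the control is labelled WT-control, with the source name C2S1, and each group has a single source name. A T-DNA knock-out mutation is listed for all 9 samples, the control included, and no label names the mutated gene, so the lines are described here only by their names and no targeted gene could be checked. Nothing says whether the samples of a group were separate cultures, so the p-values cover only how these samples varied, and that variation may be technical. Whole plants mix many cell types, so more cells of a type and more RNA per cell cannot be told apart.

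A pseudogene is a stretch of DNA that resembles a gene but has lost the ability to encode its full protein. In the Arabidopsis annotation the type takes in decayed copies of ordinary genes and many loci derived from transposable elements, and the gene tables used here do not separate these. Transposon-derived loci are dense around the centromeres and scattered on the arms, and in wild-type plants most are kept silent by DNA methylation, by methylation of histone H3 and by small RNAs. The tables gave 248 of the 253 loci no name beyond the locus code, so most members are given here by that code alone. No member's sequence was analysed here.

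Most members lay at the floor of the assay. The background of an array was taken as the highest signal among 27 probe sets for bacterial transcripts that plants lack. It was 7.54 to 13.4 on line1135 arrays, 8.49 to 10.9 on line774 arrays and 5.36 to 6.63 on wild-type arrays, so it was higher on all 6 mutant arrays. Between 48 and 91 members exceeded it on a line1135 array, 34 to 50 on a line774 array and 43 to 71 on a wild-type array. Across all 22746 probe sets, 67.5% to 76.3% exceeded it on line1135 arrays, 69.9% to 73.3% on line774 arrays and 74.5% to 78.2% on wild-type arrays. On none of the 9 arrays did 108 members exceed it, and 152 did not on any wild-type array.

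The members' summed signal was higher in both lines than in the control, with no overlap between groups. It made up 0.128%, 0.137% and 0.132% of the summed signal on the line1135 arrays, 0.0981%, 0.0940% and 0.0834% on the line774 arrays, and 0.0287%, 0.0351% and 0.0351% on the wild-type arrays. All line1135 arrays lay above all line774 arrays, and these above all wild-type arrays. A single locus, AT3G47320, supplied 30.8 ± 3.33% of the members' signal in line1135, 33.0 ± 0.947% in line774 and 0.364 ± 0.316% in wild type (SD, n = 3). Without it the share was 0.0916 ± 0.00736% in line1135, 0.0615 ± 0.00509% in line774 and 0.0328 ± 0.00376% in wild type, and the groups still did not overlap. The 230 members called in no comparison took 0.0392 ± 0.00576% in line1135, 0.0334 ± 0.00277% in line774 and 0.0298 ± 0.00345% in wild type. For these members line1135 overlapped with line774, and line774 with wild type, while all line1135 arrays stayed above all wild-type arrays. Of these 230, 108 exceeded background on no array, and background was higher on every mutant array. This separation was not tested, and neither was the part of background in it.

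**Figure D1:**
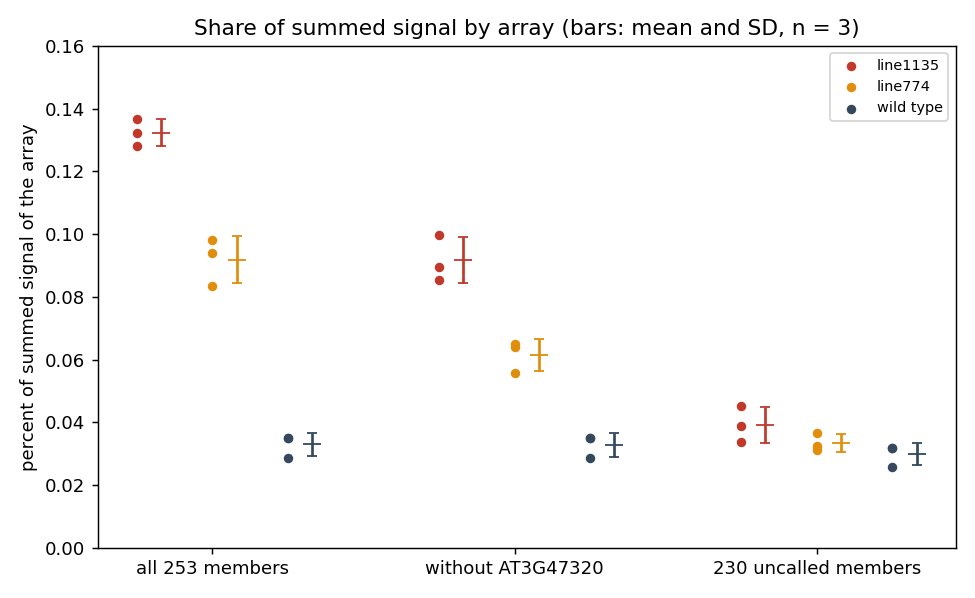
Percent of each array's summed signal taken by all 253 members, by the members without AT3G47320, and by the 230 members called in no comparison. Points are arrays, and bars are means with SD (n = 3). The line1135 and line774 arrays stand above wild type for all members, at 0.132% and 0.0918% on average against 0.0329%, while the uncalled members differ much less, at 0.0392%, 0.0334% and 0.0298%.

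Differences below are on the log2 scale of signal + 16, with standard errors, from a limma fit to all 9 arrays. A probe set was called when its p, adjusted over all probe sets, was under 0.05 and its change was at least 2-fold. The offset of 16 damps differences between very low signals, so it understates the change of dim loci. Where every array of the dim group was at or below background, a lower bound of the fold is printed ("at least"), the bright group's mean log2 signal set against the dim group's mean log2 background.

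In line1135, 22 of the 253 members were called higher than in wild type (8.7%) and 0 lower, where 1.06% of all probe sets were called higher and 1.22% lower. In line774, 10 were higher (3.95%) and 1 lower, where 1.02% and 0.98% of all probe sets were. Set directly against line774, line1135 had 10 members higher (3.95%) and 0 lower, where 0.435% and 0.167% of all probe sets were. At any fold, 34 members passed the adjusted p as higher and 1 as lower in line1135 against wild type, where 6.74% and 6.86% of all probe sets did. In line774 against wild type 16 of the 253 passed as higher and 3 as lower, where 6.6% and 6.01% did, so the members passing as higher were not above the overall share there. In line1135 against line774 14 passed as higher and 0 as lower, where 1.13% and 0.87% did. At an unadjusted p under 0.05, in either direction, limma gave 59 members in line1135 against wild type (23.3%), 31 in line774 against wild type (12.3%) and 39 in line1135 against line774 (15.4%). Over all probe sets the shares were 26.4%, 25.3% and 14.8%, so by this measure the members were not above the overall share in either line against wild type. With an offset of 64 in place of 16, which damps dim loci further, 11 members were called higher in line1135 and 5 in line774. The share of all probe sets called at that offset is not given here, so these counts show only the effect of the setting. Both lines were compared with the same 3 wild-type arrays, so their lists are not independent.

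Arrays of line1135 lay entirely above those of wild type for 57 members (22.5%) and entirely below for 9 (3.56%), where 16.5% and 14.4% of all probe sets did. For line774 against wild type the numbers were 37 (14.6%) and 10 (3.95%), where 17% and 13.7% did, and for line1135 against line774 42 (16.6%) and 9 (3.56%), where 8.93% and 9.97% did.

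The median member differed from wild type by 0.05 in line1135 and 0.03 in line774, against 0.02 over all probe sets in each line. These medians rest mostly on loci below background, and they moved to 0.22 and 0.14 at an offset of 1. Quantile normalization gave 0.00567 in line1135 and turned the line774 median to -0.00222. The 90th percentile was 0.67 among members and 0.35 among all probe sets in line1135, and 0.31 and 0.35 in line774. At the chosen offset a 2-fold decrease was out of reach for 243 members, whose wild-type signal was too low, so the counts of lower members against wild type cover only the other 10. The same limit holds between the lines for members with a low line774 signal, so the count of 0 lower there says little. For comparison, pseudogene-type _at probe sets inside the windows had 39 of 545 called higher in line1135 (7.16%) and 17 in line774 (3.12%). Protein-coding _at probe sets outside the windows had 33 of 11383 called higher in line1135 (0.29%) and 76 in line774 (0.668%). The differences between these classes were not tested.

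**Figure D2:**
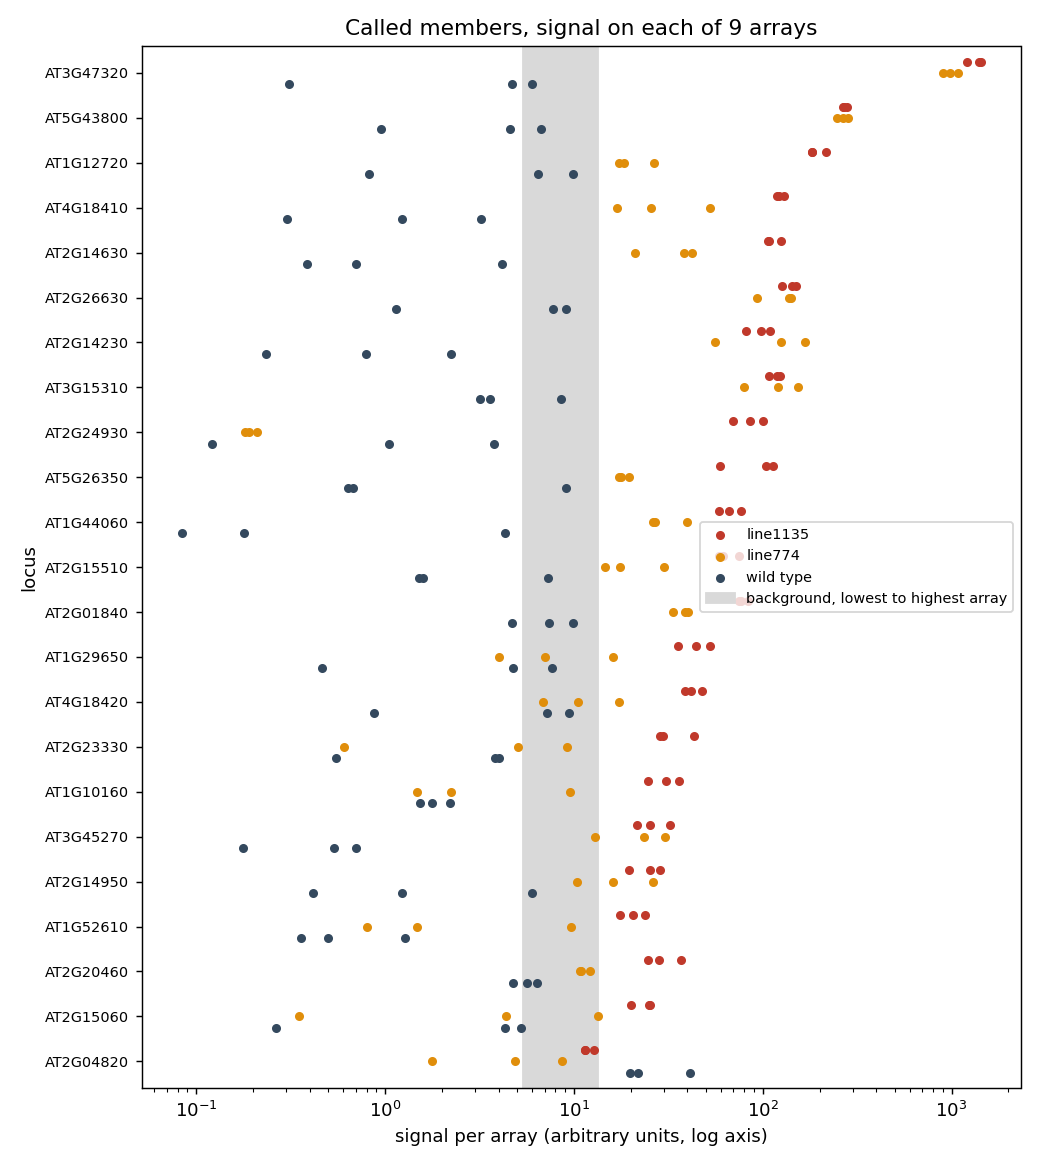
Signal of the 23 called members on each array (log axis, arbitrary units), ordered by their difference between line1135 and wild type, with line1135, line774 and wild type drawn from top to bottom within each row. The grey band spans the lowest and highest array background, 5.36 to 13.4. For 22 loci all line1135 points lie above all wild-type points, and AT2G04820, in the lowest row, is the exception, with its wild-type points highest.

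AT3G47320, on chromosome 3, had the largest difference in both lines. Its signals were 1405, 1209 and 1425 in line1135, 1077, 976 and 896 in line774, and 6.03, 4.72 and 0.312 in wild type. The wild-type arrays were all at or below background, and the mutant arrays lay far above them. It was at least 224-fold higher in line1135 and at least 163-fold higher in line774 than in wild type (adjusted p = 9.00e-11 and 1.73e-10). Every line1135 array exceeded every line774 array, but the difference between the lines, 0.45 ± 0.12, was under 2-fold and did not pass (adjusted p = 0.0927).

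AT5G43800, on chromosome 5, had signals of 265, 280 and 269 in line1135, 268, 281 and 247 in line774, and 6.71, 0.950 and 4.62 in wild type. The arrays of the lines were interleaved, all far above wild type, where 1 of 3 arrays was just above background. It rose by 3.85 ± 0.11 in line1135 (adjusted p = 2.18e-09) and by 3.82 ± 0.11 in line774 (adjusted p = 3.16e-09). The lines differed by 0.03 ± 0.11.

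AT2G26630 had signals of 144, 127 and 149 in line1135, 141, 138 and 93.3 in line774, and 7.76, 9.12 and 1.15 in wild type. It rose by 2.84 ± 0.18 in line1135 and 2.67 ± 0.18 in line774 (adjusted p = 1.93e-06 and 5.28e-06). The lines overlapped, and 2 of the 3 wild-type arrays were above background. AT3G15310, on chromosome 3, had signals of 109, 119 and 124 in line1135, 154, 121 and 79.6 in line774, and 3.60, 8.56 and 3.21 in wild type. It rose by 2.66 ± 0.19 in line1135 and 2.64 ± 0.19 in line774 (adjusted p = 6.56e-06 and 9.58e-06), and the line774 arrays spread on either side of the line1135 arrays.

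AT2G14230 had a wide spread within line774. Its signals were 97.5, 109 and 81.3 in line1135, 167, 55.9 and 125 in line774, and 0.236, 0.799 and 2.24 in wild type, where no array was above background. It was at least 15.9-fold higher in line1135 and at least 17.6-fold higher in line774 (adjusted p = 0.000103 and 9.23e-05). AT3G45270 gave 21.6, 25.3 and 32.2 in line1135, 23.6, 13.0 and 30.4 in line774, and 0.178, 0.700 and 0.539 in wild type. It was at least 4.34-fold and at least 3.51-fold higher (adjusted p = 0.000555 and 0.00135). For these 4 loci the line1135 minus line774 differences were 0.17 ± 0.18 (AT2G26630), 0.03 ± 0.19 (AT3G15310), -0.14 ± 0.27 (AT2G14230) and 0.16 ± 0.17 (AT3G45270), and a difference that does not pass is no evidence that the lines are equal.

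A second set of 10 members was called higher in line1135 than in line774. AT2G24930, on chromosome 2, had the largest of these differences, 2.63 ± 0.15 (adjusted p = 4.81e-06). Its signals were 69.3, 100.5 and 85.4 in line1135, 0.182, 0.210 and 0.191 in line774, and 0.121, 1.05 and 3.76 in wild type. It was above background on the line1135 arrays alone, at least 8.44-fold over line774 and at least 14.0-fold over wild type, and its line774 minus wild type difference was -0.12 ± 0.15.

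AT1G12720, on chromosome 1, had signals of 183, 215 and 183 in line1135, 18.4, 26.8 and 17.3 in line774, and 0.825, 6.48 and 9.92 in wild type. The 3 groups did not overlap. It was higher by 2.52 ± 0.18 in line1135 than in line774 (adjusted p = 2.02e-05) and by 3.29 ± 0.18 than in wild type (adjusted p = 4.40e-07). In line774 its difference from wild type, 0.77 ± 0.18, passed the adjusted p (0.015) but not 2-fold.

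AT4G18410 and AT4G18420, adjacent pseudogene-type loci on the long arm of chromosome 4, were both in this set. AT4G18410 gave 121, 130 and 119 in line1135, 52.6, 25.5 and 17.0 in line774, and 1.23, 3.24 and 0.303 in wild type. It rose in line1135 (at least 20.6-fold, adjusted p = 9.52e-06) and in line774 (at least 4.73-fold, adjusted p = 0.00255), and the lines differed by 1.62 ± 0.22 (adjusted p = 0.00364). AT4G18420 gave 41.7, 39.0 and 47.5 in line1135, 17.3, 6.87 and 10.5 in line774, and 0.874, 9.44 and 7.23 in wild type, and here line774 and wild type overlapped. It rose by 1.45 ± 0.19 in line1135 against wild type (adjusted p = 0.000572), and the lines differed by 1.11 ± 0.19 (adjusted p = 0.0127). The call of AT4G18420 between the lines was lost without line774 replicate 2 (0.98, adjusted p = 0.0631) or without line1135 replicate 3 (1.05, adjusted p = 0.0592).

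AT2G14630 followed the pattern of AT4G18410, with 124, 108 and 107 in line1135, 38.1, 42.0 and 21.1 in line774, and 0.389, 4.19 and 0.706 in wild type. It was at least 18.8-fold higher in line1135 and at least 5.39-fold higher in line774 than in wild type, and the lines differed by 1.40 ± 0.18 (adjusted p = 0.00202). AT5G26350 gave 114, 59.2 and 104 in line1135, 17.8, 19.5 and 17.4 in line774, and 9.11, 0.675 and 0.638 in wild type. Its groups did not overlap, and it differed by 1.62 ± 0.22 between the lines (adjusted p = 0.00343). AT2G15510 gave 58.4, 75.0 and 62.0 in line1135, 17.5, 30.2 and 14.6 in line774, and 1.52, 1.60 and 7.34 in wild type, with a difference of 1.16 ± 0.19 between the lines (adjusted p = 0.00961).

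The other 3 loci of this set stood above wild type in line1135, while their line774 and wild-type arrays overlapped. AT1G29650 averaged 44.3 ± 8.63 in line1135, 9.05 ± 6.33 in line774 and 4.30 ± 3.61 in wild type (SD, n = 3). AT2G23330 averaged 33.8 ± 8.13 in line1135, 4.95 ± 4.28 in line774 and 2.80 ± 1.94 in wild type. AT1G10160 averaged 30.6 ± 5.67 in line1135, 4.40 ± 4.43 in line774 and 1.84 ± 0.353 in wild type. The line1135 minus line774 differences of these loci were 1.29 ± 0.20, 1.26 ± 0.18 and 1.20 ± 0.16. At an offset of 1, 6 of the 10 line-to-line calls were lost, leaving AT1G10160, AT1G12720, AT2G24930 and AT4G18410, and at an offset of 64, 8 were lost, leaving AT1G12720 and AT2G24930.

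**Figure D3:**
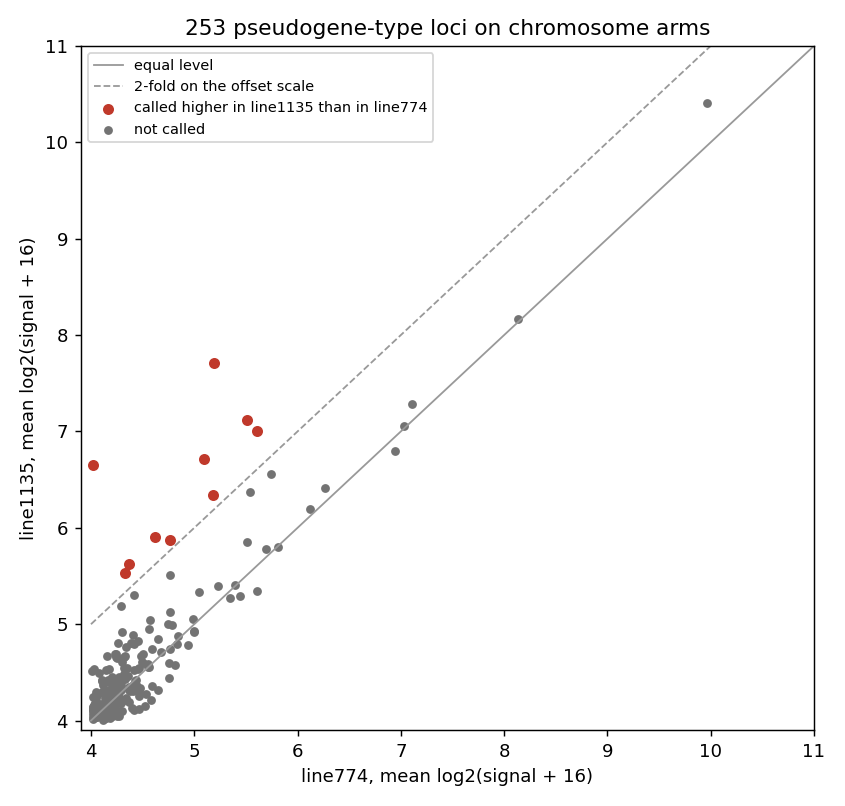
Mean log2(signal + 16) of each of the 253 members in line1135 (vertical axis) and line774 (horizontal axis), with the line of equal level and the 2-fold line. The 10 loci called higher in line1135 lie above the 2-fold line, and no locus lies as far on the other side. To lie there a locus needs a line774 signal of about 16, the offset, or more, which most members lacked. The locus at the upper right is AT3G47320, whose lines differed by 0.45.

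The remaining 6 members called higher had smaller signals or intermediate line774 levels. AT1G44060 gave 66.6, 76.4 and 58.9 in line1135, 39.9, 26.3 and 26.9 in line774, and 0.0841, 0.179 and 4.32 in wild type. It was at least 11.2-fold higher in line1135 and at least 5.08-fold higher in line774 than in wild type. AT2G01840 gave 83.2, 76.4 and 74.5 in line1135, 33.6, 38.9 and 40.5 in line774, and 9.94, 7.43 and 4.70 in wild type, and it rose by 2.01 ± 0.13 and 1.20 ± 0.13 (adjusted p = 2.93e-06 and 0.000225). Both loci had all line1135 arrays above all line774 arrays, and their differences between the lines, 0.83 ± 0.16 and 0.81 ± 0.13, passed the adjusted p (0.0283 and 0.0102) but not 2-fold.

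AT2G14950, AT2G15060, AT2G20460 and AT1G52610 were called in line1135 against wild type and in no other comparison. AT2G14950 averaged 24.6 ± 4.61 in line1135, 17.7 ± 8.14 in line774 and 2.56 ± 3.03 in wild type (SD, n = 3), and its difference in line774, 0.84 ± 0.19, passed the adjusted p (0.0148) but not 2-fold. AT2G15060 averaged 23.4 ± 2.98 in line1135, 6.07 ± 6.71 in line774 and 3.29 ± 2.66 in wild type. AT2G20460 averaged 29.9 ± 6.27 in line1135, 11.3 ± 0.817 in line774 and 5.59 ± 0.823 in wild type. AT1G52610 averaged 20.7 ± 3.01 in line1135, against 3.98 ± 4.93 in line774 and 0.712 ± 0.492 in wild type, at or below background on all arrays of both.

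Against wild type these 4 loci were at least 4.05-fold, 3.88-fold, 4.92-fold and 3.42-fold higher in line1135, in the order given. The annotation places a further, noncoding gene, AT2G00600, across AT2G15060, so its signal cannot be assigned to AT2G15060 alone. The call of AT2G15060 was lost without wild type replicate 3, with a difference of 0.92, and that of AT2G20460 without line1135 replicate 2, with a difference of 0.97.

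All 22 members called higher were of type pseudogene, and 0 of the 46 transcribed pseudogenes were called in any comparison. With 1.06% and 1.02% of all probe sets called higher in line1135 and line774 against wild type, a count of 0 of 46 says little. For transcribed pseudogenes the differences ran from -0.38 to 0.38 in line1135 and from -0.25 to 0.24 in line774, and at an unadjusted p under 0.05 limma gave 3 (6.52%) and 1 (2.17%) of them, against 26.4% and 25.3% of all probe sets. Above background on all 9 arrays were 4 of the 46 transcribed pseudogenes and 6 of the 207 pseudogenes. Of the 22 called higher, 13 had all wild-type arrays at or below background, and the other 9 had at least 1 above it.

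AT2G04820, near the chromosome 2 window, was the one member called lower. Its signals were 4.89, 8.70 and 1.78 in line774, all at or below background, against 19.7, 21.9 and 41.3 in wild type. It was at least 2.62-fold lower in line774 (-1.03 ± 0.19 on the offset scale, adjusted p = 0.005). In line1135 it gave 11.4, 11.4 and 12.8, also below every wild-type array, with a difference of -0.61 ± 0.19 (adjusted p = 0.056). The line774 call was lost without wild type replicate 3 (-0.81) or without line774 replicate 3 (-0.91), each under 2-fold.

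Of the 230 uncalled members, 108 exceeded background on none of the 9 arrays, 112 exceeded it on some, and 10 exceeded it on all. These 10 were AT1G64270, AT1G69950, AT1G80020, AT2G16110, AT3G07280, AT3G14800, AT3G44410, AT5G20880, AT5G40920 and AT5G50315, named after their values were seen. Of these, AT1G64270, AT3G07280 and AT5G50315 overlap protein-coding genes in the annotation, so their signal cannot be assigned to the pseudogene alone. AT1G80020 averaged 69.1 ± 5.62 in line1135, 61.1 ± 3.64 in line774 and 54.8 ± 2.75 in wild type (SD, n = 3), with a difference of 0.27 in line1135 (adjusted p = 0.122). AT5G20880 averaged 57.4 ± 3.51 in line1135, 53.4 ± 2.78 in line774 and 42.1 ± 6.34 in wild type. Among these 10 the differences between line1135 and wild type ran from -0.35 (AT3G07280) to 0.34 (AT5G20880), and 0 passed the adjusted p.

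Uncalled differences reached 0.99 in line1135 and 0.94 in line774. The locus nearest to a call in line1135 was AT2G16670, with 17.1 in line1135, 7.84 in line774 and 0.640 in wild type on average. It passed the adjusted p against wild type in line1135 (0.000274) and was at least 2.81-fold higher there, though under 2-fold on the offset scale. Nearest to a call in line774 was AT1G44510, with 16.3 against 0.668 in wild type. The members passing as lower at any fold were AT4G11200 in line1135, and AT2G04820, AT3G21020 and AT4G11200 in line774.

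The 5 members with a gene symbol, chosen for having one, were all uncalled and near background. CYTOSLEEPER (AT1G15300), of a plant gene family derived from a transposase, averaged 3.83 ± 1.40 in line1135, 5.52 ± 4.77 in line774 and 7.77 ± 2.55 in wild type (SD, n = 3). CYP51G2 (AT2G17330), a relative of the sterol demethylases, averaged 8.29 ± 2.79 in line1135, 7.21 ± 5.52 in line774 and 6.82 ± 2.21 in wild type. CYP71B27 (AT1G13070), of the cytochrome P450 family, averaged 9.94 ± 5.84 in line1135, 4.29 ± 2.75 in line774 and 3.75 ± 2.31 in wild type. The groups overlapped for each of these 3, and ATPP2-B3 (AT2G02270) and RSU1 (AT3G48130) were above background on at most 1 of 9 arrays. RSU1 also overlaps a protein-coding gene.

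Members called higher were found on all 5 chromosomes and across the arms: 5 of 49 on chromosome 1, 10 of 109 on chromosome 2, 3 of 43 on chromosome 3, and 2 of 26 on each of chromosomes 4 and 5. Distance from the nearer window edge was counted in locus numbers, the last digits of the locus code, which mostly step by 10 from gene to gene. Called members lay between 61 (AT1G44060) and 20840 (AT1G10160) locus numbers from a window, with a median of 4561, against 4651 for the other members. Up to 5000 locus numbers away, 11 of 129 members were called higher (8.53%), and farther out 11 of 124 (8.87%). The shares on either side of this split were close, and the split was set after the values were seen.

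**Figure D4:**
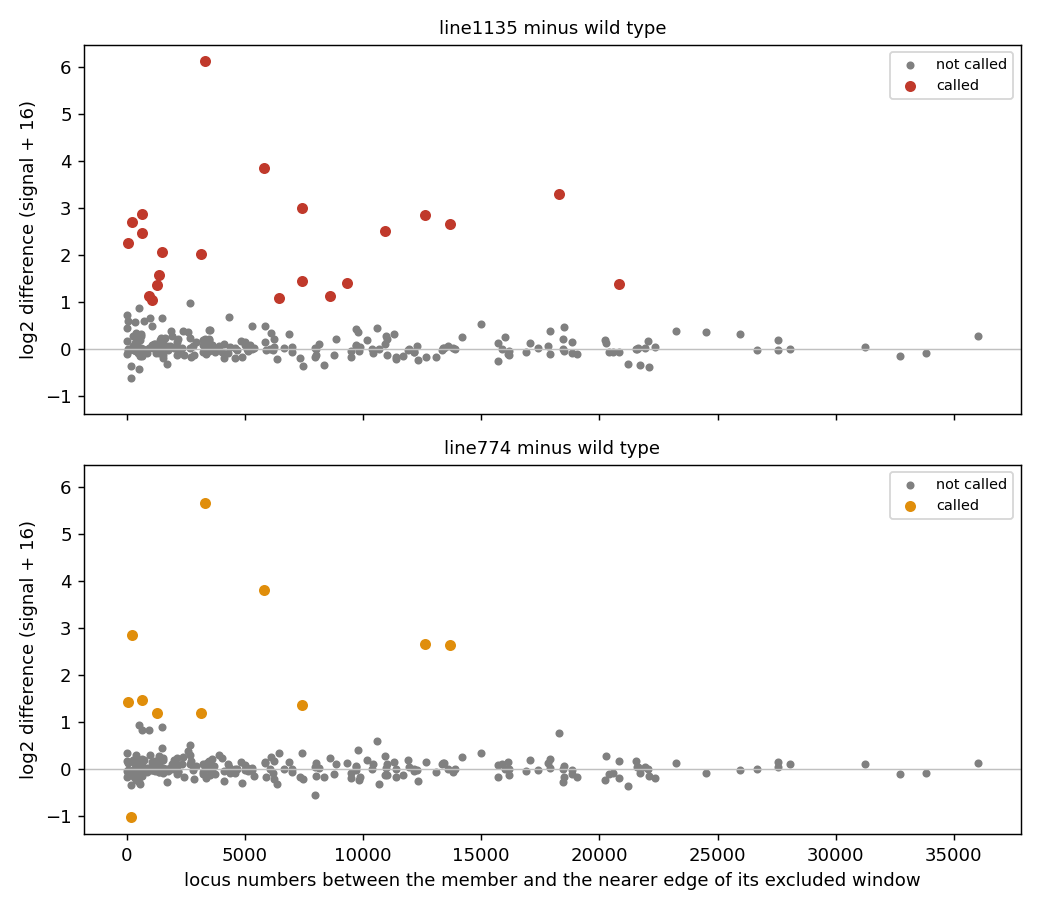
Difference from wild type (log2 of signal + 16) of each member in line1135 (upper panel) and line774 (lower panel) against its distance from the excluded window in locus numbers. Called members, coloured, are spread from 61 to 20840 locus numbers in the upper panel and from 61 to 13690 in the lower. The point below -1 in the lower panel is AT2G04820.

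The window edges set which loci count as members, and the probe sets on either side are given without a test. The 10 members nearest to the edges averaged 0.793 to 92.2 in line1135, 0.616 to 31.0 in line774 and 0.766 to 10.8 in wild type. AT1G29650, AT1G44060 and AT5G26350 were among them. The 10 pseudogene-type probe sets just inside averaged 0.553 to 35.8 in line1135, 0.554 to 20.9 in line774 and 0.339 to 4.73 in wild type, the highest in both lines being AT5G27160.

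For each member the nearest genes on either side with a probe set matched to a single gene were examined, so other genes can lie between. AT1G12650, for example, was 11 annotated genes before AT1G12720. Of 44 such neighbours of the 22 loci called higher, 4 were called higher in at least 1 line (9.09%), against 20 of 435 neighbours of the other members (4.6%), and this difference was not tested. Over all probe sets 1.06% were called higher in line1135 and 1.02% in line774, each line taken alone. All 4 were pseudogene-type loci, at 2 sites. One site is the AT4G18410 and AT4G18420 pair, each the neighbour of the other. Both are among the 22 loci called higher, so their calls as neighbours were fixed by the choice of loci. Called members are also counted among the 20, such as AT1G44060 beside the uncalled AT1G44070. The 9.09% and the 4.6% therefore cannot be read as clustering or as its absence. At the other site AT3G47320 lay between AT3G47310 and AT3G47330, which rose by 2.86 ± 0.38 and 3.40 ± 0.14 in line1135 and by 2.26 ± 0.38 and 2.42 ± 0.14 in line774. Those neighbours were read by an _s_at and an _x_at probe set, designs that can pick up transcripts of similar loci, so part of their signal may belong to other genes. A further pseudogene-type neighbour, AT1G44070 beside AT1G44060, passed the adjusted p but not 2-fold in line1135, at 0.59 ± 0.11 (adjusted p = 0.00495). AT2G15070, beside AT2G15060, differed by 0.48 ± 0.14 in line1135 (adjusted p = 0.0501).

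Among the 33 protein-coding neighbours of the loci called higher, 0 were called higher and 2 lower, and among the 356 of the other members 7 were higher (1.97%) and 10 lower. With 0.29% to 0.668% of protein-coding probe sets on the arms called higher, a count of 0 of 33 says little. The 2 lower ones were AT1G10140 and IVD, an enzyme of leucine breakdown. AT1G10140, 3 annotated genes before AT1G10160, differed by -1.05 ± 0.14 in line1135 (adjusted p = 0.000746). IVD, 6 annotated genes after AT3G45270, differed by -1.09 ± 0.12 in line774 (adjusted p = 0.000211).

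Of 40 listed genes for DNA methylation, chromatin remodelling, histone methylation, small RNAs and demethylation, only DME was matched to a probe set with a single gene in the annotation used, and the others were not analysed here. DME, a DNA demethylase, averaged 68.6 ± 10.2 in line1135, 68.7 ± 12.8 in line774 and 64.1 ± 2.43 in wild type on its brightest probe set (SD, n = 3), and 0 of its 3 probe sets were called. Of 13 tissue markers, 3 were matched in the same way. RCA, the Rubisco activase of leaves, averaged 6185 ± 402 in line1135, 5900 ± 138 in line774 and 5684 ± 665 in wild type, and PYK10, a root and hypocotyl glucosidase, 3049 ± 370, 2842 ± 535 and 3296 ± 262. EXPA7, an expansin of root hairs, averaged 11.7 ± 4.31, 18.4 ± 2.85 and 8.73 ± 4.04, and none of the 3 was called in any comparison. Flower, pollen and seed markers were not analysed here, so the part of such tissues in these signals was not tested.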

How the data were processed

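The authors deposited 1 linear intensity per probe set and array, with MAS5 and GCOS as the tools named per the submitters' processing notes and versions not given in the sources used here. Each deposited column had a 2% trimmed mean near 100, so arrays had been scaled by 1 factor each. Detection calls were not used. Groups and replicate numbers came from sample titles.

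Of 22810 probe sets, 64 controls were left out. Log2(signal + 16) was fitted with limma 3.58.1 in R 4.3.3 (1 mean per group over all 9 arrays, eBayes with an intensity trend, 6 residual degrees of freedom), without a filter on low signal. The Benjamini-Hochberg adjustment ran over 22746 probe sets per comparison, after a check of the fit on simulated data. Genes came from the platform annotation given with the series, matched by gene ID to the RefSeq table of TAIR10.1 (13436 of 13513 probe sets with 1 gene). The arrays name no build, so no coordinates are given. Named members were all those called (under 40), the 6 with the highest mean signal (all among them) and those at window edges. Others are marked in the text. Members and lists were chosen with earlier results of these data known. The alternatives tried were other offsets, scalings, filters, thresholds, moderation, arrays in the fit, a replicate block, and each array left out. Figures were drawn with matplotlib 3.10.9.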

Additional observations from a re-analysis of the deposited data

Results flagged for a closer look

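The signal of 10 members differed between the lines, by the direct limma test of line1135 against line774 (adjusted p under 0.05 and at least 2-fold). That was 3.95% of the members, where 0.435% of all probe sets were called higher. All 3 line1135 arrays lay above all 3 line774 arrays for each of them, as for 8.93% of all probe sets. The log2 differences, line1135 minus line774, were 2.63 for AT2G24930, 2.52 for AT1G12720, 1.62 for AT5G26350, 1.62 for AT4G18410, 1.40 for AT2G14630, 1.29 for AT1G29650, 1.26 for AT2G23330, 1.20 for AT1G10160, 1.16 for AT2G15510 and 1.11 for AT4G18420. The call of AT4G18420 rested on single arrays. At an offset of 1, 6 of the 10 calls were lost, and at an offset of 64, 8 were, leaving AT1G12720 and AT2G24930. Groups of 3 arrays are too small for a check of single outlying samples.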

How the results depend on the processing

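No called difference changed sign under any alternative run, and median scaling, the fit without an intensity trend, the fit of only the compared groups and the 25th-percentile filter kept all 22 and 11 calls against wild type and all 10 between the lines. Counts of members called higher in line1135, in line774 and between the lines were 32, 17 and 4 at an offset of 1, 11, 5 and 2 at an offset of 64, and 10, 8 and 4 with the 50th-percentile filter, which left 13 members to test. That filter lost no call among the members it left. Shares of all probe sets called at these offsets and with this filter are not given here, so the counts show only the effect of the setting. Without a minimum fold they were 34, 16 and 14, and quantile normalization gave 21 in line1135, losing AT2G15060 (0.99). Leaving out single arrays gave 22 to 22 in line1135, 10 to 12 in line774 and 9 to 11 between the lines. The line1135 list still changed, with 21 of its 22 calls kept without wild type replicate 3 (AT2G15060 lost) or without line1135 replicate 2 (AT2G20460 lost). Members called lower were 0 at an offset of 64, 0 with the 50th-percentile filter and 3 without a minimum fold in line774 (0 to 1 without single arrays), and 1 at an offset of 1 and 1 without a minimum fold in line1135. The 50th-percentile filter had removed AT2G04820 before testing, so its call was not tested there. The median difference moved to 0.22, 0.14 and 0.16 at an offset of 1, to 0.40, 0.23 and 0.18 over the 58 members left by the 25th-percentile filter, and to 2.71, 1.37 and 0.17 over the 13 left by the 50th, in the same order. Filters on mean signal keep loci through the group where they are high, so those medians describe no list of all members. Quantile normalization moved the median to 0.00567 in line1135 and to -0.00222 in line774. Leaving out single arrays gave medians of 0.02 to 0.06 in line1135, 0.0029 to 0.04 in line774 and 0.02 to 0.06 between the lines. Some uncalled differences of named members changed sign as single arrays were left out. Against wild type in line774 the ranges were -0.00096 to 0.299 for AT2G23330 and -0.0694 to 0.355 for AT2G15060. Between the lines they were -0.527 to 0.148 for AT2G14230, -0.0241 to 0.314 for AT3G45270, -0.198 to 0.216 for AT3G15310 (also below 0, at -0.00853, without line1135 replicate 3) and -0.0170 to 0.0708 for AT5G43800. The cause was not tested. Same-numbered arrays deviated together with correlations of 0.03 to 0.09 over all probe sets, all positive. Differently numbered arrays ran from -0.0998 to 0.0568. The same-numbered values were too low to take the numbers as pairs, and wild type replicate 2 correlated better with line774 replicate 1 than with replicate 2. Whether arrays of 1 number shared a batch was not tested. The replicate block gave 22, 10 and 10 members higher, losing 0 calls. Signal over background limits most members, and a locus below it has no measured level.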
